A study of Mus musculus with 12 samples.

Results

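The mRNAs of 10 integrin subunits known from macrophages were followed across bone marrow derived macrophages (BMDMs) exposed to neuroblastoma-conditioned medium and to an inhibitor of the tyrosine kinase Syk. The 10 genes, Itgam, Itgax, Itgal, Itgb2, Itga4, Itga5, Itgav, Itgb1, Itgb3 and Itgb5, were chosen by symbol for their known role as adhesion receptors. Earlier results of these data were known when they and the gene lists below were chosen, so the shares called are descriptions only. Each symbol matched 1 Ensembl ID, and together they were 10 of the 54232 genes in the count table. All 10 passed the filter for testing, which required at least 10 counts in at least 2 libraries and left 16281 genes.

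BMDMs came from C57BL/6 mice and had been in culture for 5 days before an exposure of 24 h, and poly(A)-selected RNA was sequenced from 12 libraries in 6 groups of 2. NS denotes cells given neither conditioned medium nor drug (SJ1 and SJ2). NB9464 TCM denotes cells given tumor-conditioned medium from NB9464, a mouse neuroblastoma line with amplified MYCN (SJ3 and SJ4), and NBT3L TCM denotes cells given medium from NBT3L, a neuroblastoma line without that amplification (SJ5 and SJ6). R788 (fostamatinib), a prodrug that is converted to a Syk inhibitor, was added at 500 nM without TCM (SJ7 and SJ8), with NB9464 TCM (SJ9 and SJ10) or with NBT3L TCM (SJ11 and SJ12). The study's methods give RPMI with serum and macrophage colony-stimulating factor for growing BMDMs before use. NB9464 TCM was collected in DMEM without serum. Nothing used here states how NBT3L TCM was prepared, what medium the NS and R788 cells had during the exposure or which vehicle carried the drug. A comparison of TCM with NS therefore also carries any difference in base medium and serum. Nothing in the labels says whether the 2 libraries of a group came from separate cultures or animals. The p-values therefore measure the spread between these libraries, which may be technical.

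Integrins are receptors made of 1 alpha and 1 beta chain that pass through the membrane, bind matrix proteins or counter-receptors outside, and couple to talin, kindlins and actin inside. In leukocytes the beta2 chain (Itgb2, CD18) pairs with the alpha chains of LFA-1 (Itgal, CD11a), Mac-1 (Itgam, CD11b) and CR4 (Itgax, CD11c), which bind ICAMs and complement fragments. The beta1 chain pairs with alpha4 and alpha5 to bind VCAM-1 and fibronectin, and alphav pairs with beta3 or beta5 to bind RGD-containing ligands such as vitronectin and osteopontin. Syk is one of the kinases recruited when beta2 and beta3 integrins on myeloid cells are engaged.

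Library totals ranged from 44977847 to 56449685 counts. The 10 subunits together took between 0.337% and 0.402% of them. The second R788 library (SJ8) stood apart in the number of genes detected, 16149 against 17275 to 18343 in the others. The macrophage markers Adgre1, Csf1r, Cd68, Fcgr1, Mertk, Lyz2 and Cd14 were all detected, with a summed level between 72156 and 86662 TPM (counts divided by gene length, then scaled to the same sum in each library). Markers of neuroblastoma cells summed to at most 2.27 TPM, with Th and Chga at 0, those of dendritic cells to at most 3.22 TPM and those of lymphocytes to at most 1.33 TPM. Lyz2 made up most of that sum, and single markers moved, with Adgre1 at 1502 and 1394 TPM in NS against 5904 and 5892 TPM in NBT3L TCM + R788, Fcgr1 at 345 and 338 TPM in NS against 77.8 and 75.8 TPM in R788, and Cd68 at 3008 and 2971 TPM in NS against 1479.8 and 1515 TPM in NB9464 TCM + R788. Fibroblast markers summed to 8.72 to 11.4 TPM in NS and 19.9 to 24.2 TPM in R788, to 8.96 to 10.8 TPM in NB9464 TCM and 11.4 to 14.0 TPM with R788 added, and to 11.7 to 13.5 TPM in NBT3L TCM and 19.1 to 20.0 TPM with R788 added. Col1a1 and Col1a2 carried that sum, and Dcn was at most 0.762 TPM. By group means Col3a1 and Pdgfra were also higher with R788 in each medium, and Dcn and Lum were lower in each. Dcn went from 0.327 TPM in NS to 0.142 TPM in R788, and Lum from 0.124 to 0.0246 TPM. Megakaryocyte and platelet markers summed to between 8.99 and 50.6 TPM, of which Ppbp was the most abundant. Neutrophil markers are given below beside Itgam, because neutrophils also carry that subunit.

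The RefSeq promoter table held 7 of the 10 genes, without Itgal, Itgb2 and Itgb3. Windows of 250 bases before the start are printed for 2 pairs. Itgam and Itgax lie next to each other on chromosome 7, with 11055 bases between the end of one and the start of the other, and their mRNAs moved in opposite directions in TCM. Itgav and Itgb5 encode chains that can form 1 receptor, and both mRNAs were lower in TCM. Capitals mark GAGGAA, the core recognised by the myeloid factor PU.1, and TGACTCA, the site of AP-1, each searched on both strands, and no match of one overlapped a match of the other. Sequences are on the plus strand of GRCm38.p6, 5′ to 3′.
Itgam, chr7:128062390-128062639: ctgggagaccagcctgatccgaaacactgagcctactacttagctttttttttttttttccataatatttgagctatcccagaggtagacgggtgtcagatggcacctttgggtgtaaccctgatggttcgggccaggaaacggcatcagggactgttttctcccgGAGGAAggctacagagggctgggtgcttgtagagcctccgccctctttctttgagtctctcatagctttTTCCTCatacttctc
Itgax, chr7:128129300-128129549: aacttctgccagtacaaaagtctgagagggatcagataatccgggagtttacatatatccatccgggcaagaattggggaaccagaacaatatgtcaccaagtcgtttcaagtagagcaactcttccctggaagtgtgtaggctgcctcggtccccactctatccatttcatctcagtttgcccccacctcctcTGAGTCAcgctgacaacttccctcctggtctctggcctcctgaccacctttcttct
Itgav, chr2:83724147-83724396: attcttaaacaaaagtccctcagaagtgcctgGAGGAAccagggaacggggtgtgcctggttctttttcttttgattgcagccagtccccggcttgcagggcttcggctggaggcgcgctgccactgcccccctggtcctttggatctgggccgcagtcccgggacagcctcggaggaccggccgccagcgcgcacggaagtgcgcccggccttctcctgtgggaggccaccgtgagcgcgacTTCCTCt
Itgb5, chr16:33829415-33829664: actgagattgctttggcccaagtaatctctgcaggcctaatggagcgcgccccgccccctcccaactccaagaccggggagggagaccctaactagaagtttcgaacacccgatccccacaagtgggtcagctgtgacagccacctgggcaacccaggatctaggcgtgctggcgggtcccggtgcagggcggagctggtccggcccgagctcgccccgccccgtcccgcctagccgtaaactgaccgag

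The windows of Itgam and Itgav each held 2 GAGGAA matches, at -84 and -15 and at -218 and -7 from the start, counted to the first base of the match. The Itgax window held none and 1 AP-1 match, and the Itgb5 window held neither. Of 32817 windows of the same length over all genes in the table, 23.3% held GAGGAA and 4.46% held TGACTCA, and either match is given as a description of these letters only.

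Levels per length put Itgb2 far above the other subunits. Its mean over the 12 libraries was 1274 TPM, followed by Itgb1 at 466 TPM, Itgal at 267 TPM, Itgam at 254 TPM, Itga5 at 161 TPM and Itgb5 at 108 TPM. Itga4 (27.4 TPM) and Itgav (22.0 TPM) were lower, and Itgax (2.32 TPM) and Itgb3 (0.919 TPM) were close to the bottom of the detected range. Itgal and Itgam cannot be ordered against each other over the series, since Itgal ranged from 128 to 373 TPM and Itgam from 209 to 357 TPM.

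**Figure D1:**
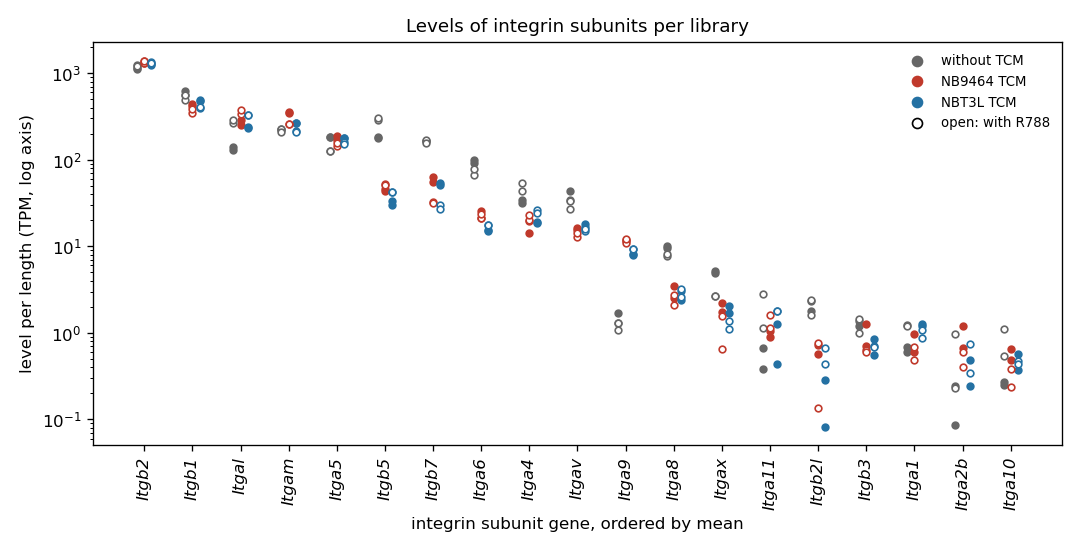
Level per length (TPM, log axis) of each tested integrin subunit detected in every library, 1 point per library, coloured by medium and open where R788 was given. Itgb2 lies between 1131 and 1393 TPM in all libraries, and Itgb5 spreads from 29.7 to 305 TPM.

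Both conditioned media moved most of the subunits. In NB9464 TCM 4 of the 10 were called higher than in NS and 5 lower, against 17.2% and 16.9% of all tested genes, and the median log2 fold change of the members was -0.17 against 0.02 over all genes. In NBT3L TCM 4 were called higher and 4 lower, against 18% and 17.3% of all genes, with medians of -0.16 and 0.00. Calls are DESeq2 Wald tests on the counts with a Benjamini-Hochberg adjusted p under 0.05. The 4 higher subunits were Itgal, Itgam, Itgb2 and Itga5 in both media. The Itga5 rise was not seen in TPM, as given below. Itgb5, Itgav, Itgax and Itga4 were lower in both, and Itgb1 was called lower in NB9464 TCM alone. Both comparisons share the NS libraries, so they are not independent of each other. Scaling to total counts in place of DESeq2's median-of-ratios factors shifted the median gene on the log2 scale. The shift was -0.13 in NB9464 TCM, -0.23 in NBT3L TCM and 0.10 in their comparison. The values below are relative to the median-of-ratios scale. Orders and overlaps of groups are those of normalized counts, and some differ in TPM.

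R788 moved subunits in either direction in each medium. Without TCM, 3 of 10 were called higher with R788 and 4 lower, against 11.6% and 15% of all genes. In NB9464 TCM, 3 were higher and 3 lower, against 5.79% and 8.7%, and in NBT3L TCM 3 were higher and 3 lower, against 5.33% and 7.24%. Averaged over the 3 media the drug was associated with higher Itgal, Itga4 and Itgb5 and with lower Itgam, Itgax, Itga5, Itgav and Itgb1, against 13.4% and 16.2% of all genes. Without SJ8, the R788 library with the fewest genes detected, 3 subunits were called higher and 3 lower in R788 against NS (Itgax was lost), and the averaged effect added Itgb2 (log2 0.07, adjusted p = 0.00269). Bulk RNA cannot tell fewer cells with a transcript from less of it per cell, in these or in the other comparisons.

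**Figure D2:**
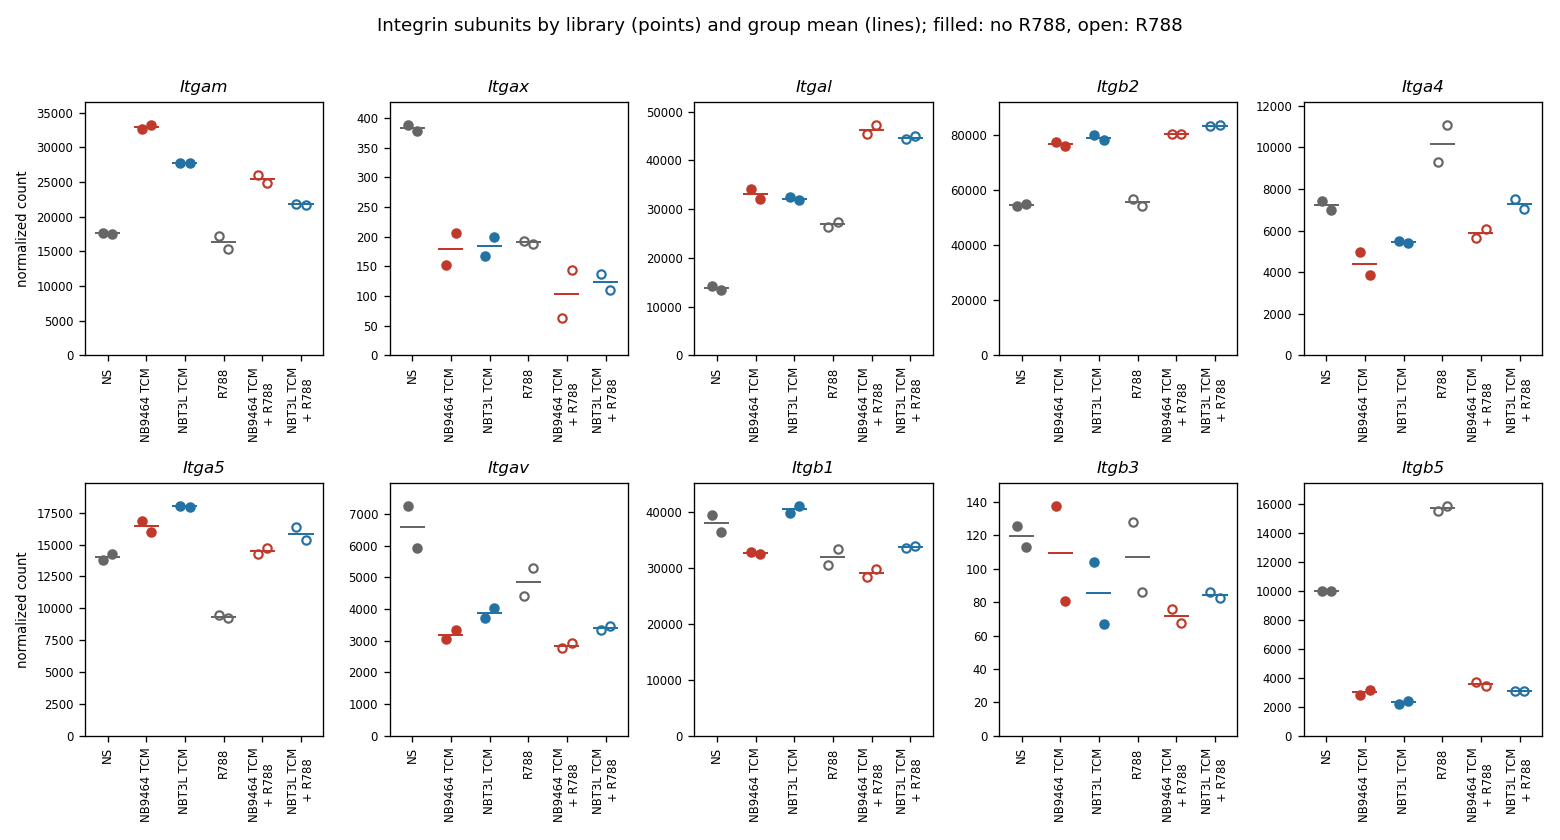
Normalized count (counts divided by the DESeq2 size factor) of each of the 10 subunits in each library (points) with the mean of each group (lines), filled without R788 and open with it, on axes that start at 0. Itgal is lowest in NS and highest in TCM with R788, and Itgb5 is highest in R788 without TCM at 15551 and 15883.

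Itgal rose under every treatment. Itgal (chr7:127296260-127335138, plus strand, mm10) encodes CD11a, the alpha chain of LFA-1, the main receptor for ICAM-1. Its normalized counts were 14140.3 and 13426 in NS, 34213 and 31977 in NB9464 TCM, and 32509.8 and 31791 in NBT3L TCM. With R788 they were 26385 and 27365 without TCM, 45298 and 47166 in NB9464 TCM, and 44273 and 44917 in NBT3L TCM. In normalized counts NS was lowest, R788 alone came next, TCM was higher and TCM with R788 was highest. Only the 2 TCM groups without drug overlapped. In TPM, R788 alone was at 266 and 284, above NBT3L TCM at 240 and 235 and overlapping NB9464 TCM at 285 and 253. Itgal rose 2.40-fold in NB9464 TCM (log2 1.26 ± 0.0521 SE, adjusted p = 9.54e-128) and 2.33-fold in NBT3L TCM (log2 1.22 ± 0.0522, adjusted p = 3.58e-119). R788 alone raised it 1.95-fold (log2 0.96 ± 0.0521, adjusted p = 1.1e-73), and within NB9464 TCM and NBT3L TCM the rise was 1.4-fold (adjusted p = 9.13e-19) and 1.39-fold (adjusted p = 6.17e-18).

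The R788 effect on Itgal was smaller in TCM than without it. On the log2 scale the difference was -0.48 (95% interval -0.63 to -0.34, adjusted p = 3.32e-09) for NB9464 TCM and -0.49 (-0.64 to -0.35, adjusted p = 1.57e-09) for NBT3L TCM. Between the 2 conditioned media without drug the difference was 0.04, with an interval from -0.06 to 0.14. Itgal kept every one of the calls against NS and with R788 in each alternative run.

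Itgam (chr7:128062640-128118491, plus strand), the CD11b chain of Mac-1 that binds the complement fragment iC3b and fibrinogen, rose in TCM and was lower where R788 was added to TCM. It measured 17663 and 17503 in NS, 32709 and 33159.8 in NB9464 TCM, and 27781 and 27688 in NBT3L TCM. With R788 the values were 17160.4 and 15378 without TCM, 25936 and 24889 in NB9464 TCM, and 21868 and 21649.7 in NBT3L TCM. In normalized counts the 6 groups did not overlap, in the order NB9464 TCM, NBT3L TCM, NB9464 TCM + R788, NBT3L TCM + R788, NS and R788. That order did not hold in TPM. There NBT3L TCM + R788 was at 212 and 209, below NS at 227 and 219 and overlapping R788 at 226 and 209. The rise was 1.87-fold in NB9464 TCM (log2 0.91 ± 0.0557, adjusted p = 9.07e-58) and 1.58-fold in NBT3L TCM (log2 0.66 ± 0.0558, adjusted p = 1.06e-30). NB9464 TCM exceeded NBT3L TCM 1.19-fold (adjusted p = 0.000174).

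R788 lowered Itgam 1.3-fold in NB9464 TCM (adjusted p = 7.21e-10) and 1.27-fold in NBT3L TCM (adjusted p = 1.33e-08). Without TCM its log2 difference was -0.11 (95% interval -0.22 to -0.00, adjusted p = 0.124), which was not called, although without SJ7 it was -0.19 with an adjusted p of 0.000234. The R788 effect in TCM differed from that without TCM by -0.26 (adjusted p = 0.00917) for NB9464 TCM and by -0.24 (adjusted p = 0.0242) for NBT3L TCM. Neither of these 2 differences held in the edgeR quasi-likelihood test, where the adjusted p was 0.0515 and 0.108, or in fits of the compared libraries alone, where it was 0.0551 and 0.0559. The NB9464 difference also lost its call without SJ2 (adjusted p = 0.0591) or SJ10 (0.0799), and the NBT3L difference without SJ1, SJ2, SJ5, SJ6, SJ11 or SJ12 (0.0723 to 0.136).

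The level of Itgam carries an annotation limit. A readthrough locus on the same strand, Gm49368, covers 3450 of the 5024 exon bases of Itgam (68.7%) and was given at most 6 counts in any library. How reads shared by both loci were counted is not given in the sources used here. Scaled to the 1574 unshared bases the same Itgam counts would correspond to 667 to 1139 TPM in place of 209 to 357 TPM. Neutrophils also express Itgam and Itgal, and the summed level of 8 neutrophil markers was 521 to 553 TPM in NS, 694 to 743 in NB9464 TCM, 771 to 787 in NBT3L TCM, 399.8 to 530.5 in R788, 579.6 to 615 in NB9464 TCM + R788 and 589 to 604 in NBT3L TCM + R788. S100a8 went from 108 and 124 TPM in NS to 479 and 451 TPM in NB9464 TCM, whereas S100a9 went from 293 and 312 to 220.2 and 200 TPM and Ngp from 89.5 and 86.6 to 29.6 and 30.9 TPM. Ly6g, a defining neutrophil marker, was at most 0.253 TPM in any library. The part of neutrophils in the Itgam and Itgal values was not tested.

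Itgax (chr7:128129547-128150657, plus strand), the CD11c chain of CR4, was highest in NS. Its normalized counts were 388 and 378 in NS, 152 and 206 in NB9464 TCM, 167 and 200.2 in NBT3L TCM, 194 and 188 in R788, 63.7 and 143 in NB9464 TCM + R788, and 137 and 109.5 in NBT3L TCM + R788. NS lay above all others, and the 3 groups given TCM or R788 singly overlapped one another. The fall was 2.14-fold in NB9464 TCM (log2 -1.10 ± 0.35, adjusted p = 0.00676), 2.08-fold in NBT3L TCM (log2 -1.06 ± 0.352, adjusted p = 0.00901) and 2.01-fold with R788 alone (log2 -1.01 ± 0.349, adjusted p = 0.0165). Each of these 3 calls rests on few counts, and each was lost without SJ1 (adjusted p 0.066, 0.0766 and 0.106) and without SJ2 (0.0537, 0.0601 and 0.101). The call in NB9464 TCM was lost without SJ3 (0.11), that in NBT3L TCM without SJ5 (0.104), and that with R788 without SJ7 (0.0544) or SJ8 (0.0669). Within TCM the R788 difference in Itgax was -0.80 (interval -1.51 to -0.09, adjusted p = 0.116) in NB9464 TCM and -0.58 (-1.28 to 0.13, adjusted p = 0.328) in NBT3L TCM, and the first was called at -1.49 without SJ10 (adjusted p = 0.00324). Averaged over the 3 media, R788 lowered Itgax 1.73-fold (log2 -0.79 ± 0.206, adjusted p = 0.000708). Itgax shares 8.02% of its 50-base stretches with Itgad, a neighbouring beta2 partner that had at most 6 counts.

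Itgb2 (chr10:77530252-77565708, plus strand), the common CD18 chain, rose with TCM by less than its alpha partner Itgal. It measured 54490.4 and 55044 in NS, 77614 and 76112 in NB9464 TCM, and 80028 and 78448 in NBT3L TCM. With R788 it measured 57008 and 54227, then 80428 and 80476, then 83385 and 83648. The groups with TCM lay above those without it, and NS and R788 overlapped. The rise was 1.4-fold in NB9464 TCM (log2 0.49 ± 0.0416, adjusted p = 1.72e-30) and 1.45-fold in NBT3L TCM (log2 0.53 ± 0.0417, adjusted p = 4.64e-36). R788 differences in Itgb2 were 0.02 (interval -0.06 to 0.10) without TCM, 0.07 (-0.02 to 0.15) in NB9464 TCM and 0.08 (-0.01 to 0.16) in NBT3L TCM, and none was called. In the fit of the compared libraries alone, the last was called (log2 0.08, adjusted p = 0.00298).

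Set side by side per length, the makeup of the beta2 family shifted. The ratio of Itgam to Itgal in TPM was 1.67 ± 0.0504 (SD, n = 2) in NS, against 1.3 ± 0.0748 for NB9464 TCM and 1.13 ± 0.0152 for NBT3L TCM. With R788 it was 0.793 ± 0.0818 without TCM, against 0.719 ± 0.0415 for NB9464 TCM and 0.638 ± 0.011 for NBT3L TCM. On the scale of the deposited lengths, every library with R788 had less Itgam than Itgal and every library without it had more. Over the unshared exon length that order did not hold, since Itgam was then at 667 to 822 TPM in the libraries with R788, against 266 to 373 TPM for Itgal. The sum of the alpha chains Itgam, Itgax, Itgal and Itgad per Itgb2 went from 0.316 in NS to 0.462 in NB9464 TCM, 0.403 in NBT3L TCM and 0.404 in R788. These ratios use Itgam over its full deposited length, the shared exons included.

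**Figure D3:**
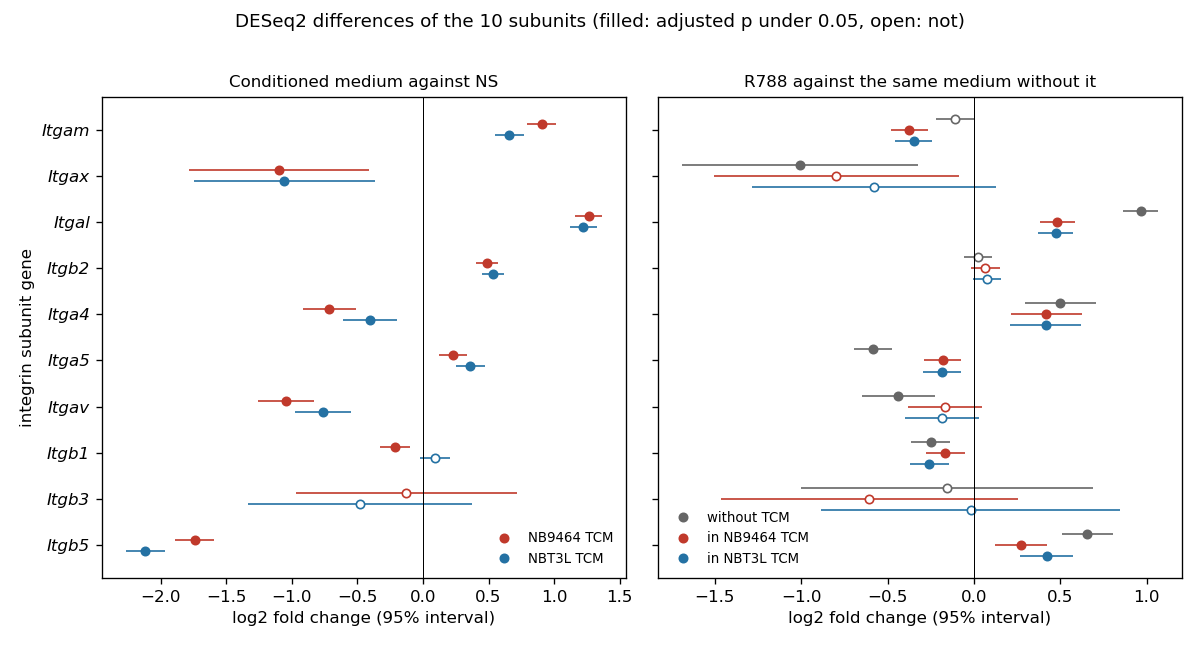
DESeq2 log2 fold changes of the 10 subunits with 95% intervals, for the 2 conditioned media against NS (left) and for R788 within each medium (right), filled where the adjusted p was under 0.05. Itgb5 lies at -1.74 and -2.12 on the left and at 0.66, 0.27 and 0.42 on the right.

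Among the alpha chains that pair with beta1, Itga4 and Itga5 moved apart in normalized counts. Itga4 (chr2:79255426-79333123, plus strand), the alpha chain of VLA-4, the receptor for VCAM-1 and a segment of fibronectin, measured 7415 and 7002 in NS, 4947 and 3843 in NB9464 TCM, and 5487 and 5410.4 in NBT3L TCM. With R788 its counts were 9310.5 and 11063 without TCM, 5649.8 and 6096 in NB9464 TCM, and 7505 and 7035 in NBT3L TCM. In normalized counts R788 alone was highest, NB9464 TCM lowest, and NBT3L TCM + R788 overlapped NS. In TPM, NBT3L TCM + R788 was at 26.2 and 24.4, below NS at 34.3 and 31.4. There NB9464 TCM, at 19.4 and 14.3, overlapped NBT3L TCM at 19.1 and 18.8. TCM lowered Itga4 1.64-fold for NB9464 (log2 -0.71 ± 0.105, adjusted p = 9.7e-11) and 1.32-fold for NBT3L (log2 -0.40 ± 0.105, adjusted p = 0.000527). R788 raised it 1.41-fold without TCM (adjusted p = 1.63e-05), 1.34-fold in NB9464 TCM (adjusted p = 0.00086) and 1.33-fold in NBT3L TCM (adjusted p = 0.00103). The second of these calls was lost without SJ4 (adjusted p = 0.100) or SJ10 (0.0502) and the third without SJ11 (0.0542). The effect in either TCM differed from that without TCM by -0.08, with an interval from -0.37 to 0.21. The lower value in NB9464 than in NBT3L TCM (log2 -0.31, adjusted p = 0.0298) was lost in edgeR (adjusted p = 0.103), with total-count scaling (0.228) and without SJ4 (0.511), SJ5 (0.188) or SJ6 (0.158). On the opposite strand Cerkl overlaps 8.04% of the exon bases of Itga4, with at most 63 counts.

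Itga5 (chr15:103344286-103366763, minus strand), the alpha chain of the classical fibronectin receptor, was lowest in R788 alone. It measured 13798 and 14227 in NS, 16876 and 15962 in NB9464 TCM, and 18039 and 17946 in NBT3L TCM. With R788 the values were 9461 and 9217 without TCM, 14225 and 14727 in NB9464 TCM, and 16353 and 15316 in NBT3L TCM. Both R788 libraries without TCM lay below every other library. NB9464 TCM + R788 overlapped NS in normalized counts, but in TPM it was at 143 and 155, below NS at 181 and 181. On the median-of-ratios scale TCM raised Itga5 1.17-fold for NB9464 (adjusted p = 0.000195) and 1.28-fold for NBT3L (adjusted p = 7.61e-10). With total-count scaling the differences were 0.10 (adjusted p = 0.177) and 0.13 (0.0606). In TPM neither medium showed a rise. There NB9464 TCM, at 187 and 168, spanned NS, and NBT3L TCM, at 178 and 176, lay below it. R788 alone lowered it 1.5-fold (log2 -0.59 ± 0.0558, adjusted p = 5.92e-24).

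In TCM the R788 effect on Itga5 was weaker, 1.13-fold lower in NB9464 TCM (log2 -0.18, adjusted p = 0.00875) and 1.14-fold lower in NBT3L TCM (log2 -0.18, adjusted p = 0.00885). Those 2 small falls were fragile: the first was lost without SJ3 (adjusted p = 0.198) or SJ9 (0.176), and the second in edgeR (0.0617) and without SJ5 (0.113), SJ6 (0.111) or SJ12 (0.267). The difference from the effect without TCM was 0.40 in either medium (interval 0.25 to 0.56 in NB9464 TCM), with adjusted p values of 8.81e-06 and 1.24e-05, and it was called in each alternative. The per-length ratio of Itga4 to Itga5 was 0.182 in NS, 0.0942 in NB9464 TCM, 0.107 in NBT3L TCM and 0.385 in R788.

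Itgb1 (chr8:128685654-128733200, plus strand), the beta1 chain that pairs with alpha4, alpha5 and many others, changed least of the 10, with a 1.39-fold span of its group means. Its normalized counts were 39583 and 36476 in NS, 32984 and 32522 in NB9464 TCM, and 39864 and 41188 in NBT3L TCM. With R788 they were 30509 and 33389.9, then 28511 and 29880.3, then 33612 and 34049. R788 lay below the drug-free libraries in each medium. Itgb1 fell 1.16-fold in NB9464 TCM (log2 -0.22 ± 0.0575, adjusted p = 0.000818, lost without SJ1 at 0.0631), while in NBT3L TCM the difference was 0.09 (interval -0.02 to 0.20, adjusted p = 0.226). With total-count scaling that second value turned to -0.14 (adjusted p = 0.0456). NB9464 TCM was 1.24-fold below NBT3L TCM (log2 -0.31 ± 0.0575, adjusted p = 3.11e-06).

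R788 lowered Itgb1 1.19-fold without TCM (adjusted p = 0.000102) and 1.2-fold in NBT3L TCM (adjusted p = 0.000112). In NB9464 TCM the fall was 1.12-fold (adjusted p = 0.0255) and its call was lost without SJ3 (adjusted p = 0.16), SJ4 (0.0833), SJ9 (0.297) or SJ10 (0.0547).

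Itgb5 had the widest span of the 10, 6.84-fold over its group means. Itgb5 (chr16:33829665-33949338, plus strand), the beta5 chain of the vitronectin receptor alphav-beta5, measured 9961 and 9990.2 in NS, 2818 and 3147 in NB9464 TCM, and 2175 and 2418 in NBT3L TCM. With R788 the counts were 15551 and 15883 without TCM, 3735 and 3459 in NB9464 TCM, and 3062 and 3085 in NBT3L TCM. Cells without TCM had several times more Itgb5 than cells with it, and of the 6 groups only NBT3L TCM + R788 and NB9464 TCM overlapped. The fall was 3.34-fold in NB9464 TCM (log2 -1.74 ± 0.0761, adjusted p = 5.53e-114) and 4.34-fold in NBT3L TCM (log2 -2.12 ± 0.0773, adjusted p = 6.28e-163). NB9464 TCM stayed 1.3-fold above NBT3L TCM (adjusted p = 4.48e-05).

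R788 raised Itgb5 1.58-fold without TCM (log2 0.66 ± 0.0742, adjusted p = 3.8e-17), 1.21-fold in NB9464 TCM (adjusted p = 0.00447) and 1.34-fold in NBT3L TCM (adjusted p = 2.87e-06). The call in NB9464 TCM was lost without SJ3 (adjusted p = 0.175) or SJ9 (0.162). The summed fibroblast markers given above were also higher with R788 in each medium, as Itgb5 and Itga4 were, although Dcn and Lum were lower. The part of these markers in the results was not tested. The rise in NB9464 TCM differed from that without TCM by -0.39 (interval -0.60 to -0.18, adjusted p = 0.00404), a call that was lost without SJ4 (0.0559) or SJ10 (0.0529), and the difference for NBT3L TCM was -0.24 (-0.45 to -0.02, adjusted p = 0.147). Itgb5 shares 7.25% of its 50-base stretches with Gm38317.

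Itgav (chr2:83724397-83806916, plus strand), the alpha chain for beta3 and beta5, also fell in TCM. It measured 7262 and 5921 in NS, 3049 and 3331 in NB9464 TCM, and 3714 and 4044 in NBT3L TCM. With R788 it measured 4424 and 5292 without TCM, 2761 and 2926 in NB9464 TCM, and 3347 and 3466 in NBT3L TCM. In normalized counts the 6 groups did not overlap, NS was highest, and the TCM groups were all below R788 alone. The fall was 2.07-fold in NB9464 TCM (log2 -1.05 ± 0.108, adjusted p = 7.12e-21) and 1.70-fold in NBT3L TCM (log2 -0.76 ± 0.108, adjusted p = 1.66e-11). R788 alone lowered Itgav 1.36-fold (log2 -0.44 ± 0.108, adjusted p = 0.000324), which was lost without SJ1, the higher NS library (adjusted p = 0.0633). In TCM the R788 differences were -0.17 (interval -0.38 to 0.05) and -0.19 (-0.40 to 0.03) and were not called. On the opposite strand Gm13684 overlaps 5.9% of its exon bases, with at most 6 counts.

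Itgb3 (chr11:104608000-104670476, plus strand), the beta3 chain known from platelets and osteoclasts, was scarce and was called in none of the comparisons. Its normalized counts ran from 67.1 to 138, and its group means from 71.7 to 119. The 2 libraries of a group lay as close as 85.9 and 82.4 in NBT3L TCM + R788 and as far apart as 138 and 80.8 in NB9464 TCM. The interval of its TCM difference was -0.97 to 0.72 for NB9464 and -1.34 to 0.37 for NBT3L; a difference was not detectable at this depth. Itgb5 exceeded Itgb3 per length in every library, by 34.0-fold to 306-fold.

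The alphav chain and its beta5 partner moved differently with R788 alone. Per length, the ratio of Itgb5 to Itgav was 4.63 ± 0.675 (SD, n = 2) in NS and 9.85 ± 1.1 in R788, and it was 2.83 ± 0.0443 in NB9464 TCM and 1.79 ± 0.0269 in NBT3L TCM. The ratio of Itgb5 to Itgb1 went from 0.302 ± 0.0181 in NS to 0.105 ± 0.00921 and 0.0651 ± 0.00338 in the 2 conditioned media and to 0.566 ± 0.0276 in R788. The ratio of Itgb2 to Itgb1 was 1.93 ± 0.125 in NS, 3.14 ± 0.0121 in NB9464 TCM, 2.62 ± 0.0973 in NBT3L TCM, and 3.69 ± 0.121 and 3.30 ± 0.0228 where R788 was added to them.

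**Figure D4:**
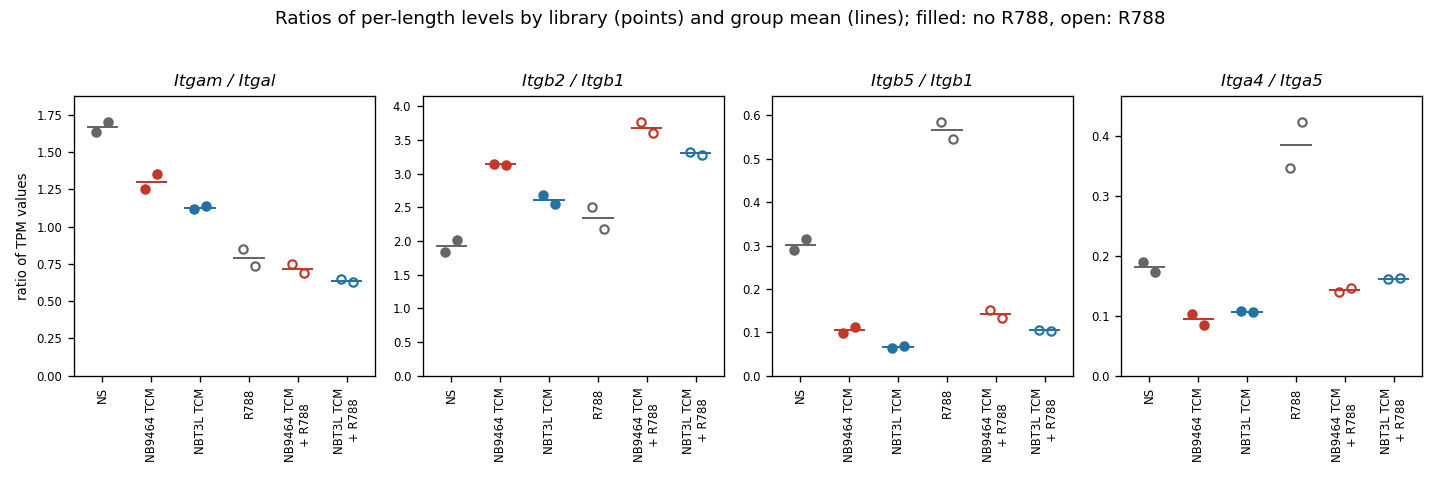
Ratios of TPM values for 4 pairs of subunits in each library (points) with the mean of each group (lines), filled without R788 and open with it, on axes that start at 0. The ratio of Itgam to Itgal falls from 1.67 in NS to 0.638 in NBT3L TCM + R788, and that of Itgb5 to Itgb1 peaks at 0.566 in R788 alone.

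Between the 2 conditioned media, 2 of the 10 subunits were higher in NB9464 TCM (Itgam and Itgb5) and 2 were lower (Itga4 and Itgb1), against 3.69% and 5.72% of all tested genes. The R788 effect differed from that without TCM for 4 subunits in NB9464 TCM (Itgam, Itgal, Itga5 and Itgb5) and for 3 in NBT3L TCM (Itgam, Itgal and Itga5), against 12.5% and 10.1% of all genes. For the other 6 and 7 subunits the differences ran from -0.45 to 0.27 and from -0.24 to 0.43, with adjusted p values of 0.242 and above and of 0.147 and above. Compared between NB9464 TCM and NBT3L TCM, the R788 effect was called different for 0 of 10 subunits in DESeq2 and 0 in edgeR, and 0 had an unadjusted p under 0.05, against 0.706% of all genes called. Those differences ran from -0.59 to 0.09, and the widest belonged to Itgb3, whose interval was -1.81 to 0.63.

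By a rule of likeness over the 6 group means on the log2 scale, the genes closest to Itgb5 were Mbp (Pearson r = 0.999), Fbxo3 (0.997) and Slc16a7 (0.997). Mbp had group means of 3251 in NS, 2190 in NB9464 TCM, 1926 in NBT3L TCM and 3810.1 in R788, so its span was 1.98-fold where that of Itgb5 was 6.84-fold. Closest to Itgax were Raet1d (0.997), Nras (0.996) and Mnd1 (0.995). With 6 points that share libraries and the search over all tested genes, such values are descriptions only.

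Of 17 other integrin subunits, 14 passed the filter, and Itga2, Itgad and Itgb6 did not. In NB9464 TCM 4 of the 14 were called higher and 3 lower, and in NBT3L TCM 3 and 4, against 17.2% and 16.9% and against 18% and 17.3% of all genes. Itga9, an alpha partner of beta1 that binds tenascin and osteopontin, had the largest rise in either medium among those whose mean reached 100 normalized counts and that had no library at 0. It went from 203 and 160.2 in NS to 1618 and 1729.7 in NB9464 TCM and to 1267 and 1301 in NBT3L TCM. That is 9.22-fold (log2 3.20 ± 0.151, adjusted p = 1.01e-97) and 7.07-fold (log2 2.82 ± 0.152, adjusted p = 7.1e-75). R788 left it at 152 and 123 without TCM, a difference of -0.41 (adjusted p = 0.0545).

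Itga6, the alpha chain of laminin receptors, fell 3.43-fold in NB9464 TCM (13855 and 13111 to 4236 and 3632, adjusted p = 5.92e-90) and 4.77-fold in NBT3L TCM (2765 and 2888, adjusted p = 3.68e-141). With R788 alone it fell 1.39-fold to 9022 and 10391 (adjusted p = 5.33e-07), and it was 1.39-fold higher in NB9464 than in NBT3L TCM (adjusted p = 3.28e-06). Itga8 fell 2.73-fold and 2.71-fold. Itgb7, the beta chain that pairs with alpha4 and alphaE, fell in TCM and fell again where R788 was added to TCM. Its counts were 6980.0 and 7245 in NS, 3209 and 2934 in NB9464 TCM, 2929.6 and 3049 in NBT3L TCM, 7149 and 6311 in R788, 1796 and 1697 in NB9464 TCM + R788, and 1704 and 1550.4 in NBT3L TCM + R788. The fall was 2.32-fold and 2.38-fold for the 2 media (adjusted p = 5.4e-41 and 3.37e-43). R788 added a further 1.76-fold and 1.84-fold in them (adjusted p = 4.34e-17 and 1.32e-19), against a log2 difference of -0.08 without TCM (adjusted p = 0.561). The alpha4 chain moved the other way with R788 in TCM, as given above.

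Itga1 rose 2.52-fold in NBT3L TCM (196 and 179 to 457 and 491, adjusted p = 2.94e-06) and 1.79-fold with R788 alone (343 and 328, adjusted p = 0.0078), the latter lost without SJ2 (adjusted p = 0.0918). Its lower level in NB9464 than in NBT3L TCM (log2 -0.81, adjusted p = 0.0211) was lost with total-count scaling (0.0584) and without SJ4 (0.331), SJ5 (0.128) or SJ6 (0.237). Itga11 was 3.50-fold higher with R788 alone (88.2 and 208 against 53.5 and 31.3 normalized counts in NS), but its call was lost without SJ2 (adjusted p = 0.085) or SJ8 (0.182). The summed fibroblast markers, carried by Col1a1 and Col1a2, were also higher with R788 alone, while Dcn and Lum were lower. The part of these markers was not tested. Itgb8 had 8 and 2 counts in NS, 67 to 230 in the 8 libraries with TCM and 0 in both R788 libraries without TCM, where 0 allows up to 3 counts, so no fold is given between those groups, although DESeq2 called it lower with R788. Against NS it was called higher in NB9464 TCM (adjusted p = 1.4e-09) and in NBT3L TCM (adjusted p = 2.4e-14). Itga2b, Itga3, Itga10 and Itgb2l also had calls against NS and each had a mean under 100 normalized counts.

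**Figure D5:**
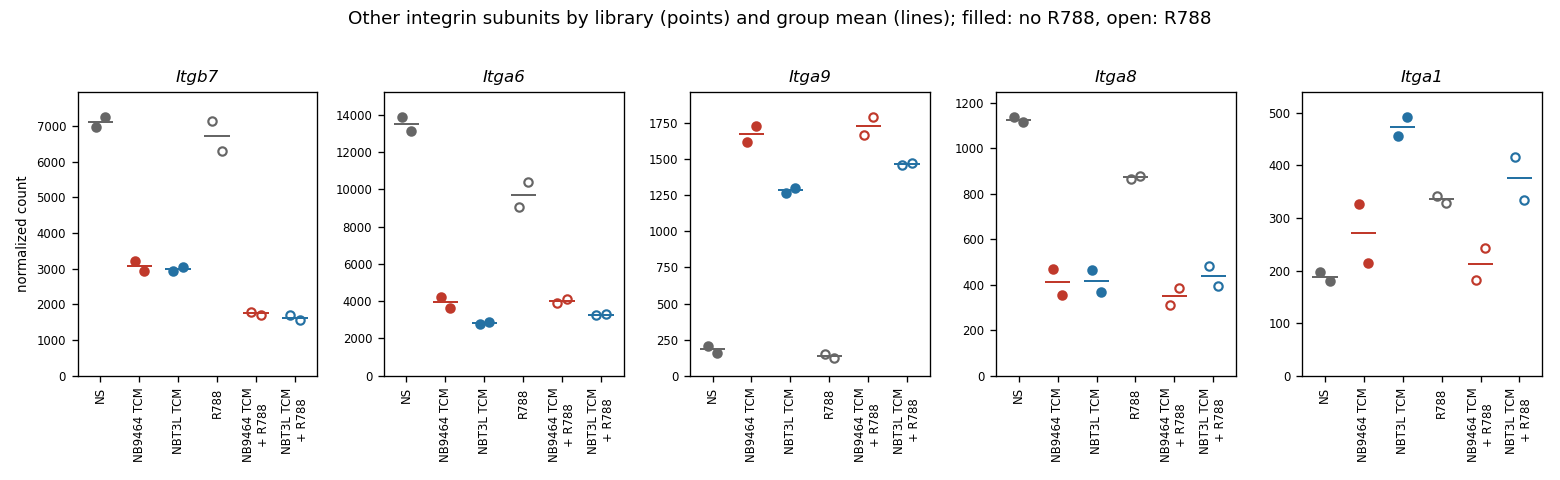
Normalized count of Itgb7, Itga6, Itga9, Itga8 and Itga1 in each library (points) with the mean of each group (lines), filled without R788 and open with it, on axes that start at 0. Itga9 lies at 123 to 203 without TCM and at 1267 to 1791 with it, and Itgb7 is lowest in TCM with R788, at 1550.4 to 1796.

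Some ligands of these receptors changed as well. Of 32 listed ligand genes, 25 were tested, with 5 rises and 8 falls in NB9464 TCM, 8 and 6 in NBT3L TCM, 4 and 5 with R788 alone, 3 and 5 with R788 added to NB9464 TCM, and 5 and 4 with R788 added to NBT3L TCM. The rises and falls were 20% and 32% of the 25 in NB9464 TCM, 32% and 24% in NBT3L TCM and 16% and 20% with R788 alone. Several of these shares lay near those of all genes given above. With R788 added to NB9464 TCM they were 12% and 20%, beside 5.79% and 8.7% of all genes. With R788 added to NBT3L TCM they were 20% and 16%, beside 5.33% and 7.24%. The median log2 difference of the 25 was 0.13 in either medium and -0.12 with R788 alone. Spp1, which encodes osteopontin, a ligand of alphav, alpha4 and alpha9 integrins, went from 135345 and 137111 in NS to 35422 and 35347 in NB9464 TCM, 19339.8 and 18887 in NBT3L TCM, and 23319 and 21817 in R788. It was lowest with both, at 3791 and 4019 in NB9464 TCM + R788 and at 3719.9 and 3850.5 in NBT3L TCM + R788. Its log2 differences were -1.94 ± 0.0495, -2.83 ± 0.0499 and -2.59 ± 0.0496 against NS, and -3.18 ± 0.0522 and -2.34 ± 0.0526 for R788 within the 2 media. Thbs1, thrombospondin 1, rose by 2.6 ± 0.0592 and 3.69 ± 0.0591 on the log2 scale in the 2 media and by 1.57 ± 0.0595 with R788 alone. C3, the source of the iC3b that Mac-1 binds, rose by 2.10 ± 0.0461 and 2.09 ± 0.0462 in TCM. Icam1, the main ligand of LFA-1, rose by 0.87 ± 0.0729 and 1.3 ± 0.0728 in TCM, by 0.67 ± 0.0729 with R788 alone, and by 0.57 ± 0.0718 and 0.44 ± 0.0715 with R788 in the 2 media, as Itgal did.

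Of 24 genes for signaling from engaged integrins, 13 were higher and 4 lower in NB9464 TCM and 12 and 5 in NBT3L TCM. The falls (16.7% and 20.8%) lay near the 16.9% and 17.3% of all genes, and the rises (54.2% and 50%) stood beside 17.2% and 18%. The list's median log2 differences were 0.26 and 0.40, against 0.02 and 0.00 over all genes. Among the rises was Rac2 (log2 1.39 and 1.5), a small GTPase of hematopoietic cells. Fyn, a Src family kinase, fell in both (-1.12 and -1.34). Syk, the target of the drug, measured 15428 and 14546 in NS, 34238 and 33632 in NB9464 TCM, and 37102 and 37581 in NBT3L TCM. It rose in both media (log2 1.18 ± 0.051 and 1.32 ± 0.0511). With R788 it rose by 0.26 ± 0.0512 without TCM, by 0.32 ± 0.0506 in NB9464 TCM and by 0.24 ± 0.0507 in NBT3L TCM. With R788 alone, 5 of the 24 were higher (20.8% beside 11.6% of all genes), led by Fgr (0.81). The 2 lower (8.33% beside 15%) were Ptk2b (-0.32) and Rac2 (-0.20). The Rac2 call was lost with total-count scaling, in the fit of the compared libraries alone and without SJ2 or SJ8.

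Of 21 tested genes for the activation of integrins from within the cell, 7 rose and 5 fell in NB9464 TCM and 9 rose and 4 fell in NBT3L TCM, with medians of 0.14 and 0.18 against 0.02 and 0.00 over all genes. The rises were 33.3% and 42.9% of the list, beside 17.2% and 18% of all genes. The falls were 23.8% and 19%, beside 16.9% and 17.3%, and the second lay near that share. Rasgrp2, an exchange factor for Rap1, rose by 1.96 and 1.58 on the log2 scale, and Fermt3, the kindlin of blood cells, by 0.69 and 0.68. Rasgrp4 (-0.96 and -1.18) and Cyth1 (-0.94 and -0.92) fell. With R788 alone 5 rose and 4 fell, 23.8% and 19% of the list beside 11.6% and 15% of all genes, so the falls lay near that share. In this case Rasgrp4 (0.68) and Cyth1 (0.56) were among the rises.

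Of 20 genes for the scaffold that joins integrins to actin, 4 rose and 9 fell in NB9464 TCM, 4 and 7 in NBT3L TCM, and 7 and 8 with R788 alone, with medians of -0.19, -0.09 and 0.02. The rises in TCM, 20% of the list in either medium, lay near the 17.2% and 18% of all genes. The falls in TCM were 45% and 35% beside 16.9% and 17.3%. With R788 alone the rises and falls were 35% and 40%, beside 11.6% and 15% of all genes. Vasp, an actin regulator, rose in both media (log2 1.5 and 1.65) and with R788 in all 3 (0.67, 0.44 and 0.49). Tns1, a tensin that binds beta chains, fell in NBT3L TCM (-2.03 ± 0.189) and rose with R788 in each medium (0.76, 1.01 and 0.97). Actn4 was lower with R788 in the 3 media (-0.48, -0.29 and -0.21), the last lost in edgeR and without SJ5, SJ11 or SJ12.

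Of 15 membrane proteins that associate with integrins, 6 rose and 5 fell in NB9464 TCM and 8 and 3 in NBT3L TCM, with medians of 0.06 and 0.45. The rises were 40% and 53.3% of the list, beside 17.2% and 18% of all genes. The falls were 33.3% and 20%, beside 16.9% and 17.3%, and the second lay near that share. The tetraspanins split, with Cd82 higher (log2 1.13 and 1.09) and Cd9 lower (-1.04 and -0.95). Cav1 fell in NB9464 TCM (-1.4 ± 0.158) and rose in NBT3L TCM (0.92 ± 0.152). Plaur, the urokinase receptor, which binds beta2 and beta1 integrins laterally, fell with R788 by 1.2 ± 0.0811 in NB9464 TCM and by 1.41 ± 0.0811 in NBT3L TCM on the log2 scale. In the comparison of the 2 media without drug, 8 of the 15 were lower in NB9464 TCM and 0 higher in DESeq2, against 5.72% and 3.69% of all genes.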

How the data were processed

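RNA of 12 BMDM libraries was sequenced, and the authors deposited 1 table of raw counts per gene with a gene length, another kind of value, that was used only for TPM. Per the labels, the processing notes name STAR 2.6.1d, Salmon 1.4.0, SAMtools 1.9, Picard 2.26, MultiQC 1.11 and the build mm10. The study's methods name STAR for mapping and Salmon for quantification, and the table holds whole numbers. The use of strand and the treatment of reads shared by several genes are not given in the sources used here. Even values made up more of the counts between 1 and 40 than odd ones in every library, so counts divided by 2 were tried.

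Groups came from the labels. The 16281 genes that reached 10 counts in 2 or more libraries were fitted in DESeq2 1.42.0 (R 4.3.3), with 1 mean per group and Wald tests. Benjamini-Hochberg adjustment followed DESeq2's default independent filtering, so some genes with low counts had no adjusted p in some comparisons. Adjusted p-values in the text come from that fit unless edgeR 4.0.16 is named. Intervals are 95% and cover the fitted spread only. Alternatives were edgeR's quasi-likelihood test with TMM, TMM factors in DESeq2, all genes without a filter, a minimum mean of 50 counts, halved counts, fits of the compared libraries alone and each library left out. Total-count scaling was added after seeing the data. The scripts were tested on simulated data. Named were all 10 subunits, the tested other subunits, up to 3 rises and 3 falls per list and comparison among called genes whose mean reached 100 normalized counts, and the 3 genes most like each of the 2 widest-ranging subunits. The members and lists were chosen with earlier results of these data known. Lengths equalled GENCODE exon lengths for 97.3% of 54165 matched IDs. Promoter windows came from RefSeq (GRCm38.p6). 1 gene of the signaling list is not reported here by name.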

Additional observations from a re-analysis of the deposited data

Results flagged for a closer look

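For 8 integrin subunits whose mean reached 100 normalized counts and that had no library at 0, the R788 effect in 1 or both conditioned media differed from the effect without them, by the interaction term of the DESeq2 fit. Itgb8, at 0 in both R788 libraries without TCM, and Itga10, with a mean under 100, were called too and are not given. Of the 10 subunits, 1 was called higher and 3 lower for NB9464 TCM, and 1 and 2 for NBT3L TCM. Of the 14 other tested subunits, Itgb8 and Itga10 included, 2 and 3 were called for NB9464 TCM, and 3 and 2 for NBT3L TCM. Beside these, 12.5% and 10.1% of all tested genes were called for the 2 media. The share of all genes called in 1 or both media was not computed. Groups held 2 libraries, so single libraries could not be tested as outliers. Among the subunits known from macrophages, the log2 difference was -0.26 for Itgam, -0.48 for Itgal, 0.40 for Itga5 and -0.39 for Itgb5 in NB9464 TCM. In NBT3L TCM it was -0.24 for Itgam, -0.49 for Itgal and 0.40 for Itga5. Both sets of differences share the NS and R788 libraries. Of 19 alternatives, the Itgam call was lost in 4 for NB9464 TCM and in 8 for NBT3L TCM, and the Itgb5 call in 2.

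Among the other subunits, the difference in NB9464 TCM was -1.19 for Itga1, 0.50 for Itga6 and -0.73 for Itgb7. In NBT3L TCM it was -1.17 for Itga1, 0.68 for Itga6, -0.80 for Itgb7 and 0.60 for Itga9. The Itga9 difference had an adjusted p of 0.0453 and lost its call in 14 of 19 alternatives, among them edgeR (0.0773) and the fit without SJ1. The Itga1 differences lost their calls in 4 of 19 in either medium, and those of Itga6 and Itgb7 kept theirs in each alternative.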

How the results depend on the processing

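Of 4793 values recomputed under alternatives, 4560 kept their direction and their side of the threshold, 209 lost a call, 12 gained one and 12 changed sign. With total-count scaling, added after seeing the data, Itgb1 in NBT3L TCM against NS turned to -0.14, and in NB9464 against NBT3L TCM Itgax turned to 0.0654 and Itgb2 to 0.0597; the shift of the median gene given above bears on these. Leaving out each library in turn, the log2 difference between NB9464 TCM and NBT3L TCM ran from -0.009 to 0.0876 for Itgal, from -0.28 to 0.17 for Itgax and from -0.0801 to 0.70 for Itgb3. That of Itgb3 ran from -0.56 to 0.21 in NB9464 TCM against NS, from -0.47 to 0.10 in R788 against NS and from -0.30 to 0.33 for R788 within NBT3L TCM, and the Itgb2 log2 fold change, R788 against NS, from -0.013 to 0.0566. The number of the 10 subunits called for R788 within NB9464 TCM ran from 3 (without SJ3 or SJ9) to 6, and for the R788 effect in NB9464 TCM against that without TCM from 2 (without SJ10) to 5 (without SJ8). The cause of these changes was not tested. No paired analysis was possible because the groups share no replicate numbers. The average over 3 media has no fit of compared libraries alone. With 2 libraries a group and under 400 normalized counts, Itgax and Itgb3 are the subunits that depth limits most.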
